A study of Canis lupus familiaris with 8 samples.

Results

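RGS10, CTPS1, CSTA, FAM241A, MAL, PDE3B, RFLNB and HOMER2 are 8 of the 13155 genes detected in peripheral blood TCRαβ+ T cells of 4 Beagle dogs. They were picked because an earlier reading of the same data placed them on the side of the naïve cells, that is of cells with UMIs (unique molecular identifiers, each counting 1 captured RNA molecule) of both CCR7 and LEF1. The genes were thus chosen by their UMI levels in CD4 and CD8A single-positive cells with and without CCR7 and LEF1, and the values of that contrast are given below as a description without any test. What the choice did not use were the T cell receptor clones of the same cells and the contrast between the CD4 and the CD8A lineage within naïve-type cells, and these were tested.

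The dogs were healthy and all had received routine vaccinations. Ages and sexes were 5 years (female) for dog 1, 7 years (male) for both dogs 2 and 3, and 9 years (male) for dog 4, so that sex, age and individual cannot be told apart for dogs 1 and 4. Viable TCRαβ+ cells were sorted, frozen, thawed together and sequenced from the 5' end together with their receptor transcripts, in 1 library of each kind per dog. After filtering, 7096, 8454, 8109 and 8250 cells of dogs 1 to 4 remained, 31909 in all, from libraries of 26904346 to 35661623 UMIs, and pairs of libraries shared 81 to 113 cell barcodes.

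A cell was called CD4 single-positive (sp) when it held at least 1 UMI of CD4 and none of CD8A, CD8A sp in the converse case, and double-negative (dn) when it held neither. There were 13247 CD4 sp, 6427 CD8A sp and 11510 dn cells, of which 4204, 515 and 2322 were CCR7+LEF1+. Levels are given as CPM, the UMIs of a gene per 1000000 UMIs of all cells of that class in 1 dog, and errors are SD over dogs with n = 4 unless another n is given. A gate on 1 UMI leaves cells on the wrong side, since a transcript can be missed, and a level summed over cells does not tell fewer positive cells from less RNA per cell.

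TCF7, a transcription factor of resting T cells that was not part of the gates, stood at 483 CPM in pooled CD4 sp CCR7+LEF1+ cells and at 202 CPM in CCR7-LEF1- cells. Markers of other cells were checked in the 4 pooled sp classes with both or neither of CCR7 and LEF1. Of 6 B cell markers 5 were found, and of these MS4A1, CD79B and BANK1 were at 3.21 CPM or less, whereas CD79A was at 8780 to 11746 CPM. Of 9 myeloid markers 3 were found, LYZ and CD68 at 1.18 CPM or less and S100A8 at 1235 to 3274 CPM, lower in CCR7+LEF1+ than in CCR7-LEF1- cells of both lineages. The platelet marker found, ITGA2B, was at 1.18 CPM or less, and of the dendritic cell markers FLT3 and TCF4 were at 0.393 CPM or less. The part of CD79A and S100A8 in the results was not tested.

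Naïve T cells have not yet met their antigen. They circulate through lymph nodes, which CCR7 lets them enter, they are kept at rest by transcription factors such as LEF1 and TCF7, and each of them carries a receptor shared with few or no other cells. After activation a cell divides, its progeny share 1 receptor, and effector genes such as granzymes are switched on.

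The 8 genes have unrelated functions. RGS10 speeds up the shut-off of G proteins downstream of chemokine receptors, and PDE3B degrades cyclic AMP, so that both act on signalling. CTPS1 makes the nucleotide CTP, which proliferating lymphocytes depend on. CSTA (cystatin A) inhibits cathepsins inside the cell, MAL is a membrane proteolipid of T cell transport vesicles, RFLNB (refilin B) binds filamin at the actin skeleton, and HOMER2 is a scaffold protein that in T cells can bind NFAT. The gene identifiers paired with these symbols were ENSCAFG00000031204 for RGS10, ENSCAFG00000002732 for CTPS1, ENSCAFG00000011877 for CSTA, ENSCAFG00000011636 for FAM241A, ENSCAFG00000007047 for MAL, ENSCAFG00000008487 for PDE3B, ENSCAFG00000019130 for RFLNB and ENSCAFG00000013185 for HOMER2.

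Both signalling genes had higher levels in CCR7+LEF1+ cells, but to a different degree. RGS10 was at 462, 291, 247 and 122 CPM in CD4 sp CCR7+LEF1+ cells of dogs 1 to 4 and at 88.6, 22.5, 15.7 and 11.9 CPM in the CCR7-LEF1- cells of the same dogs. Its level in CD8A sp cells was 464, 395, 303 and 183 CPM against 8.83, 20.7, 21.5 and 11.7 CPM. The lowest CCR7+LEF1+ value lay above the highest CCR7-LEF1- value in both lineages.

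For PDE3B the separation was narrower. It was at 165, 103, 82.6 and 51.3 CPM in CD4 sp CCR7+LEF1+ cells and at 59.9, 25.0, 22.7 and 29.7 CPM in CCR7-LEF1- cells, with dog 1 of the second class above dog 4 of the first. CD8A sp CCR7-LEF1- cells kept 86.1, 55.7, 36.6 and 80.5 CPM of PDE3B, next to 202, 149, 118 and 94.5 CPM in CCR7+LEF1+ cells. In dog 4 the 2 classes of CD8A sp cells thus differed by only 0.23 on the log2 scale.

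RFLNB was the gene with the largest mean log2 difference in CD8A sp cells, 4.46 ± 0.41 with 1 CPM added to both sides, and came second to RGS10 in CD4 sp cells, at 3.20 ± 0.58 against 3.29 ± 0.67. Its level was 63.3, 42.3, 58.9 and 21.0 CPM in CD4 sp CCR7+LEF1+ cells of dogs 1 to 4 and 11.6, 3.19, 3.64 and 1.10 CPM in CCR7-LEF1- cells. CSTA was as abundant as RGS10 in CD4 sp CCR7+LEF1+ cells, at 289, 384, 420 and 91.6 CPM, and at 47.8, 61.2, 133 and 10.6 CPM in CCR7-LEF1- cells. Dog 3 had the highest and dog 4 the lowest CSTA in both classes, so that the classes overlapped across dogs although CCR7+LEF1+ cells were higher in all 4.

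CTPS1 fell between these, with 109 ± 43 CPM in CD4 sp CCR7+LEF1+ cells and 20.9 ± 13 CPM in CCR7-LEF1- cells, and 82.7 ± 32 against 6.94 ± 1.5 CPM in CD8A sp cells. FAM241A, for which no role is given here, had 81.3 ± 30 against 16.1 ± 7.2 CPM in CD4 sp and 57.8 ± 22 against 7.84 ± 1.1 CPM in CD8A sp cells.

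MAL was the rarest of the 8, with very few UMIs in CD8A sp cells. It reached 20.2, 12.5, 2.25 and 3.69 CPM in CD4 sp CCR7+LEF1+ cells. In CCR7-LEF1- CD4 sp cells 6 UMIs were found in dog 1 and 0 in dogs 2 to 4, where 0 UMIs allow a level of up to 0.683, 0.840 and 0.550 CPM (3 counts, counting error only). In CD8A sp CCR7+LEF1+ cells 1, 1, 0 and 1 UMIs were found in dogs 1 to 4, too few to compare. The 1 UMI of dog 4 gave 3.05 CPM, next to 3.69 CPM in its CD4 sp cells. In dog 3, 0 UMIs allow up to 2.99 CPM, above the 2.25 CPM of its CD4 sp cells.

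HOMER2 differed little between the classes, and its direction was not the same in both lineages. In CD4 sp cells it was at 23.7, 92.4, 91.4 and 99.7 CPM with CCR7 and LEF1 and at 12.1, 80.8, 79.3 and 82.1 CPM without, a log2 difference of 0.40 ± 0.35, with CCR7+LEF1+ cells higher in 4 of 4 dogs. Among CD8A sp cells it was at 29.6, 96.2, 92.7 and 82.3 CPM with and at 22.6, 100.2, 96.9 and 105 CPM without, and 1 of 4 dogs was higher in CCR7+LEF1+ cells. In CD8A sp cells its sign turned with thinning, with a stricter gate and without dog 4.

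**Figure D1:**
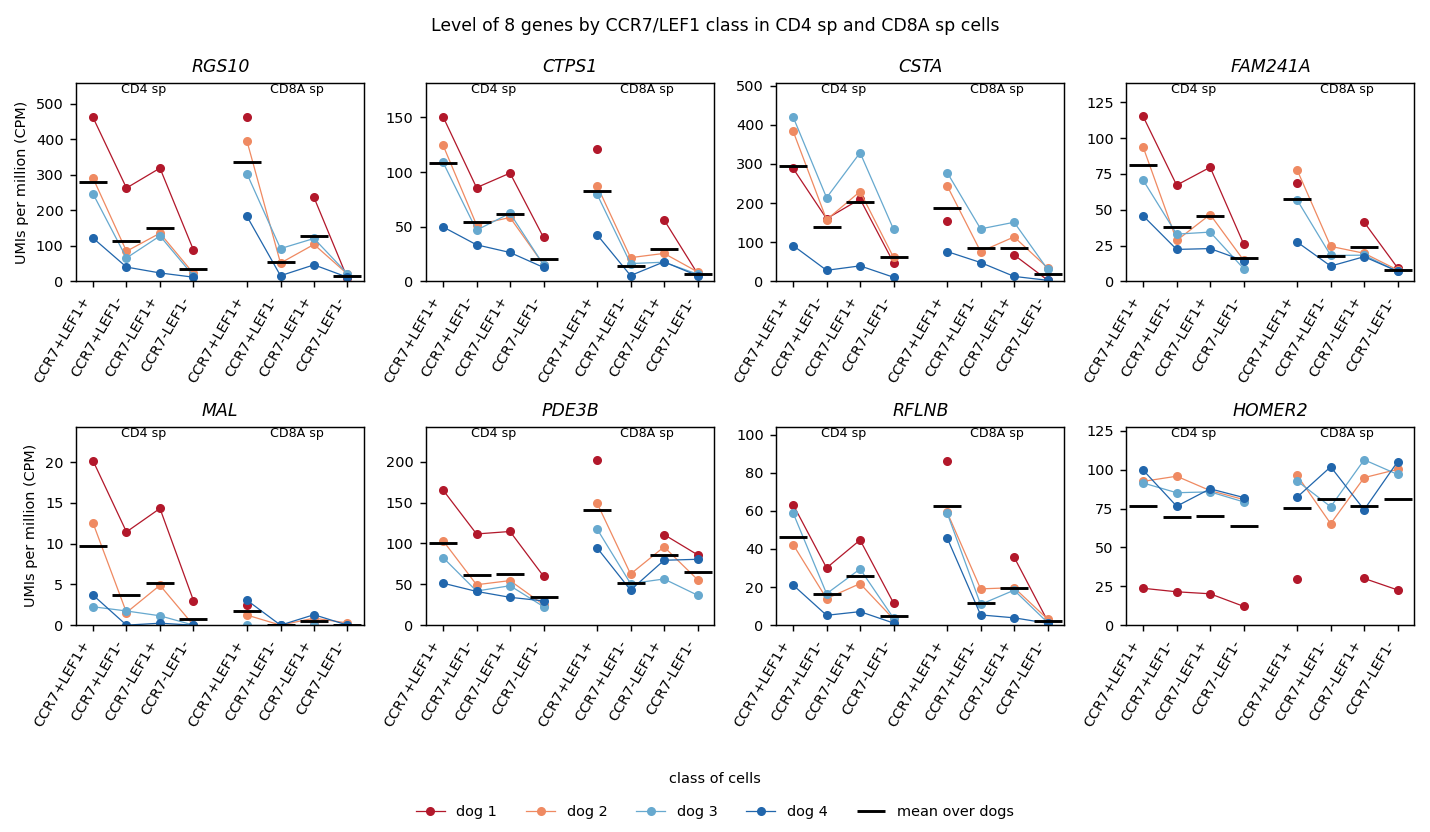
Level (CPM, linear axis from 0) of each of the 8 genes in the 4 CCR7/LEF1 classes of CD4 sp and CD8A sp cells, 1 point per dog joined within a lineage, black bars for the mean. RGS10, CTPS1, CSTA, FAM241A and RFLNB drop from CCR7+LEF1+ to CCR7-LEF1- in every dog with the single-marker classes in between, PDE3B keeps a level in CD8A sp cells, MAL is near 0 in CD8A sp cells, and HOMER2 is flat with dog 1 far below the others. Dog 1 has no point for CD8A sp CCR7+LEF1-, where fewer than 20 cells were left. The points of dog 4 in that class rest on 1 UMI for CTPS1 and RFLNB and on 3 for RGS10. MAL in CD8A sp cells rests on too few UMIs to compare with CD4 sp cells.

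Beside 6.18% of 7036 genes (at least 10 CPM on average over both classes) whose CCR7+LEF1+ values all lay above the CCR7-LEF1- values in CD4 sp cells, RGS10, CTPS1, FAM241A and RFLNB had such separate values, and PDE3B, CSTA and HOMER2 did not. In CD8A sp cells, where 6.18% of 7022 genes were separate, the list was RGS10, CTPS1, CSTA, FAM241A, PDE3B and RFLNB. Because this contrast chose the genes, nothing is read from these counts. MAL was under this limit in both lineages.

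Cells with only 1 of the 2 markers held intermediate levels of RGS10, CTPS1, CSTA, FAM241A and RFLNB in both lineages, in every dog with at least 20 cells of the class. In the 36 CD8A sp CCR7+LEF1- cells of dog 4, however, CTPS1 and RFLNB had 1 UMI each and RGS10 had 3. These are too few to place the class. RGS10 was at 114 ± 101 CPM in CD4 sp CCR7+LEF1- cells and at 152 ± 123 CPM in CCR7-LEF1+ cells, next to 281 ± 141 CPM with both and 34.7 ± 36 CPM with neither. RFLNB followed the same order, with 16.4 ± 10 and 25.7 ± 16 CPM between 46.4 ± 19 and 4.88 ± 4.6 CPM. PDE3B was intermediate in CD4 sp cells, but in CD8A sp cells of dog 4 it was at 42.9 CPM in CCR7+LEF1- and 79.3 CPM in CCR7-LEF1+ cells, below the 80.5 CPM of CCR7-LEF1- cells. MAL had 0 UMIs in CD4 sp CCR7+LEF1- cells of dog 4. In the dn cells, in which no lineage transcript was captured, every member but HOMER2 was higher in CCR7+LEF1+ than in CCR7-LEF1- cells of all dogs. RGS10 was at 304 ± 145 CPM in the first and 27.6 ± 21 CPM in the second. The log2 difference of HOMER2 was 0.06 ± 0.09 in dn cells, smaller than the 0.40 ± 0.35 of CD4 sp cells.

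Within the CCR7-LEF1- cells, 9 classes by effector or lineage transcripts showed where the remaining signal lay. Among CD4 sp cells, those with none of FOXP3, GATA3, CXCR3, KLRK1 and GZMK had the highest mean of RGS10 (54.6 ± 53 CPM) and RFLNB (8.37 ± 4.3 CPM). This did not hold in every dog. RGS10 in them was at 131, 47.5, 32.0 and 8.08 CPM in dogs 1 to 4, the last being the lowest of these classes in dog 4. In dog 1 RFLNB was higher in GATA3+ cells (16.4 against 11.2 CPM). The cells with none of these were also shallow, with medians of 2868 to 3163 UMIs. The FOXP3+ cells, which include regulatory T cells, had the lowest mean of RGS10 (8.41 ± 3.6 CPM), from 1, 5, 2 and 4 UMIs. FOXP3+ cells nevertheless had CSTA at 20.1, 102, 189 and 35.3 CPM in dogs 1 to 4, and CTPS1 at 22.2 ± 4.4 CPM. RFLNB and MAL had 0 UMIs in CXCR3+ and in KLRK1+ or GZMK+ CD4 sp cells of all dogs, and MAL also in FOXP3+ cells. These classes were small. In the first 2 of them 0 UMIs allow from 2.34 CPM (CXCR3+ cells of dog 4) to 35.4 CPM (22 KLRK1+ or GZMK+ cells of dog 1), by counting error only.

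PDE3B kept a high level in CCR7-LEF1- classes of CD8A sp cells. In FCER1G+ CD8A sp cells, which include innate-like T cells, it was at 101, 80.0, 59.1 and 131 CPM in dogs 1 to 4, while RGS10 was at 10.2 ± 2.4 CPM and CSTA at 6.85 ± 7.05 CPM in the same cells. GZMB+ CD8A sp cells had 50.9 ± 20 CPM and GZMK+ cells 31.6 ± 14 CPM (n = 3) of PDE3B. In the order of the 15 class means, FCER1G+ CD8A sp cells came next for PDE3B after CD8A sp and CD4 sp CCR7+LEF1+ cells, and each neighbouring pair of classes overlapped across dogs.

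**Figure D2:**
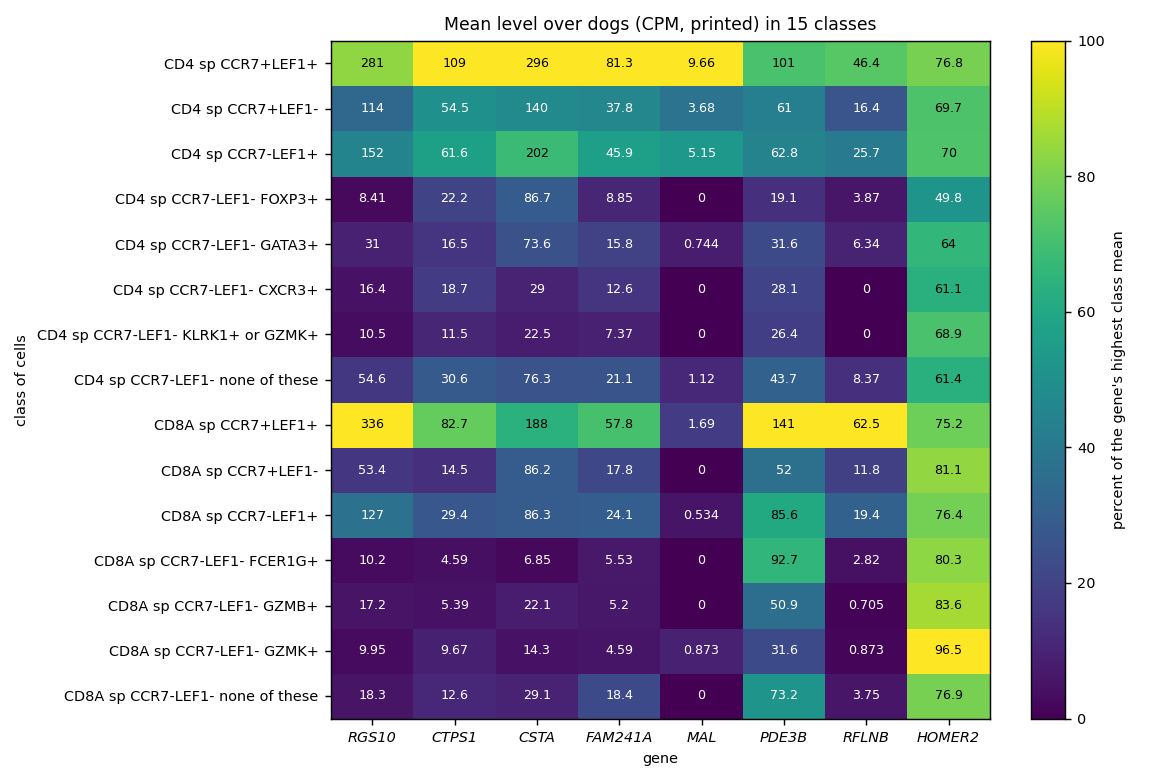
Mean CPM over dogs (printed in the cells) of the 8 genes (columns) in 15 classes of CD4 sp and CD8A sp cells (rows), with colour giving the percent of each gene's highest class mean. Within each lineage the CCR7+LEF1+ row is the brightest for RGS10, CTPS1, CSTA, FAM241A and RFLNB. MAL is bright in CD4 sp rows only, but its UMIs in CD8A sp rows are too few to compare. The FCER1G+ CD8A sp row is bright for PDE3B (92.7 CPM), and HOMER2 lies between 49.8 and 96.5 CPM in all rows. The CD8A sp CCR7+LEF1- and GZMK+ rows are means without dog 1, the dog with the lowest HOMER2.

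The sp cells with a UMI of MKI67, a marker of dividing cells, were few, 498 in all. RGS10 was at 76.4, 49.1, 25.4 and 30.0 CPM in them and at 320, 140, 107 and 34.9 CPM in the other sp cells of dogs 1 to 4. CTPS1, the nucleotide-synthesis gene, was also lower in MKI67+ cells, at 27.8 ± 16 against 55.8 ± 35 CPM, and in each of the 4 dogs (50.9 and 102, 21.1 and 57.9, 22.4 and 43.3, 16.7 and 20.04 CPM). The other sp cells include the CCR7+LEF1+ cells, whose levels chose the genes. In CCR7-LEF1- cells CTPS1 was at 40.3, 15.5, 15.1 and 12.8 CPM (CD4 sp) and at 7.17, 8.75, 6.64 and 5.19 CPM (CD8A sp) in dogs 1 to 4. Both were below the MKI67+ cells of the same dog. The lower CTPS1 of MKI67+ cells thus holds only beside all other sp cells. The MKI67+ cells were deeper, with medians of 5144.5 to 6752.5 UMIs against 3747 to 3998, and these differences were not tested.

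Apart from HOMER2, levels were higher in CD4 sp CCR7+LEF1+ cells that also held RGS10. CD4 sp CCR7+LEF1+ cells with an RGS10 UMI had 423 ± 142 CPM of CSTA, 120 ± 24 CPM of FAM241A and 64.9 ± 17 CPM of RFLNB, and those without had 176 ± 116, 41.1 ± 11 and 29.1 ± 14 CPM. CTPS1 and PDE3B were likewise higher in RGS10+ cells of every dog, whereas HOMER2 was at 81.2 ± 41 and 75.4 ± 31 CPM. In CD8A sp CCR7+LEF1+ cells CTPS1, CSTA, FAM241A and PDE3B were higher in RGS10+ cells of every dog, while RFLNB was lower in dog 1 (82.4 against 96.3 CPM, 24 and 11 UMIs) and higher in dogs 2 to 4, and MAL had at most 1 UMI in either class of any dog. Median UMI counts of RGS10+ and RGS10- cells were 3926 and 3800 in dog 1, 3921 and 4341 in dog 2, 3786 and 3952 in dog 3, and 4235 and 4736 in dog 4, so that RGS10+ cells were deeper in dog 1 and shallower in the others. Cells under 2000 UMIs numbered 29 of 1062 RGS10+ and 51 of 442 RGS10- cells in dog 1, and were rarer among RGS10+ cells in every dog. The part of depth in this difference was not tested.

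Thinning cells of at least 2000 UMIs to 2000 UMIs gave a count per cell at equal depth. Cells under 2000 UMIs were left out of the thinned shares, and more so in CCR7-LEF1- classes. They were 210 of 4204 CD4 sp CCR7+LEF1+ and 704 of 3977 CD4 sp CCR7-LEF1- cells. In CD8A sp cells they were 19 of 515 and 620 of 4625. Of RGS10, CTPS1, CSTA, FAM241A, PDE3B and RFLNB, the 6 genes left after MAL and HOMER2 were set aside once their values had been seen, 3 or more were detected in 21.2% ± 10 of CD4 sp CCR7+LEF1+ cells and in 1.495% ± 2.0 of CCR7-LEF1- cells. None of the 6 was detected in 32.3% ± 19 and 78.9% ± 6.7 of them. Among CD8A sp cells 3 or more were found in 17.1% ± 6.7 of CCR7+LEF1+ and 0.177% ± 0.12 of CCR7-LEF1- cells. Unthinned, 49.3% ± 18 of CD4 sp CCR7+LEF1+ cells had an RGS10 UMI, against 7.62% ± 4.4 of CD4 sp CCR7-LEF1- cells, and thinned 37.0% ± 15 against 5.38% ± 5.4. In CD8A sp cells the unthinned shares were 59.8% ± 15 and 5.15% ± 1.9 and the thinned ones 44.4% ± 15 and 3.27% ± 1.5.

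The first comparison outside the rule asked whether naïve-type cells of the 2 lineages differ in these genes. CSTA, CTPS1 and FAM241A had higher levels in CD4 sp than in CD8A sp CCR7+LEF1+ cells of all 4 dogs, and PDE3B had lower levels in all 4. RGS10 was level in dog 1 (462 CPM in CD4 sp and 464 CPM in CD8A sp cells). It was lower in CD4 sp cells of dogs 2 to 4 (291 and 395, 247 and 303, 122 and 183 CPM). CSTA was at 289, 384, 420 and 91.6 CPM in CD4 sp and at 155, 244, 278 and 76.2 CPM in CD8A sp cells of dogs 1 to 4. PDE3B was at 101 ± 48 and 141 ± 47 CPM, and the lineages overlapped across dogs for all 8 genes.

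Without the dog as a term, 77 of 8105 genes passed edgeR's quasi-likelihood test at an adjusted p under 0.05 (0.95%), and 0 of the 7 members tested did, with 0 at an unadjusted p under 0.05. DESeq2 also called 0 of 8, with 1 at an unadjusted p under 0.05. With the dog as a block, which compares the lineages within each animal, 551 genes were called (6.8%), and among them were CSTA (log2 fold change 0.58 ± 0.08 SE, adjusted p = 2.61e-08) and CTPS1 (0.36 ± 0.11, adjusted p = 0.0238), higher in CD4 sp cells, and PDE3B (-0.55 ± 0.10, adjusted p = 2.03e-05) and RGS10 (-0.35 ± 0.07, adjusted p = 0.000281), lower in CD4 sp cells. FAM241A and RFLNB had adjusted p-values of 0.0720 and 0.0658 in this fit and HOMER2 of 0.858. MAL had too few UMIs to pass the filter.

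The CD8A sp CCR7+LEF1+ class also held more effector transcripts. Of 14 tested genes of a list of memory and effector genes, 6 were lower in CD4 sp cells and 0 higher, among them GZMB (log2 fold change -5.24 ± 0.48, adjusted p = 6.79e-05) and CCL5 (-4.25 ± 0.47, adjusted p = 0.000391), with a median of -2.72 for the list and 0.00 for all genes. Of 12 tested quiescence and naïve genes 0 passed. Whether CD8A sp cells that are not naïve account for the differences in the 4 members was not tested.

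The receptor sequences gave a second measure of a cell's history. Cells with exactly 1 productive TRB chain were joined into clones by identical V gene, J gene and junction within a dog, and a clone of 1 cell was called singleton and one of 2 or more cells expanded. Among CD4 sp cells 7236 were singleton and 2568 expanded, and the expanded share of these was 4.85%, 29.8%, 23.3% and 48.6% in dogs 1 to 4. With this sampling, singletons can belong to clones whose other cells were not captured.

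In CD4 sp cells RGS10, CTPS1, FAM241A and RFLNB were higher in singleton than in expanded clones. RGS10 was at 354, 219, 161 and 61.0 CPM in singleton and at 91.3, 20.2, 16.1 and 16.4 CPM in expanded cells of dogs 1 to 4. RFLNB was at 47.3, 31.8, 40.6 and 14.7 CPM against 21.9, 1.66, 3.59 and 0.965 CPM, the latter from 12, 6, 8 and 5 UMIs. Each dog had the higher value in singletons, and the overlap of the groups came from the expanded cells of dog 1, which were the highest of their group and lay above singletons of dog 4.

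By edgeR the log2 fold changes were 3.105 ± 0.61 SE for RGS10 (adjusted p = 0.0207), 2.37 ± 0.34 for CTPS1 (adjusted p = 0.00809), 1.90 ± 0.37 for FAM241A (adjusted p = 0.0207) and 3.60 ± 0.64 for RFLNB (adjusted p = 0.0171). These 4 of the 7 members tested stood beside 500 of 9364 genes called (5.34%), 221 of them (2.36%) higher in singletons. PDE3B (1.78 ± 0.49, adjusted p = 0.0587) and CSTA (2.12 ± 0.59, adjusted p = 0.0633) missed the threshold and passed it with the dog as a block (adjusted p = 0.000240 and 3.03e-08), a fit that called 1459 genes (15.6%). HOMER2 did not pass (-0.03 ± 0.42, adjusted p = 0.992), with 71.7 ± 34 CPM in singleton and 65.7 ± 33 CPM in expanded cells.

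Without dog 2 only 1 gene was called and without dog 3 only 23, and the 4 members then had adjusted p-values of 0.151 to 0.226 and 0.0690 to 0.125, with log2 fold changes of 1.82 to 3.61. RFLNB was also lost with DESeq2 (adjusted p = 0.107).

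Clone class moved with the CCR7/LEF1 gate, which had chosen the genes. CCR7+LEF1+ cells made up 43.2%, 41.9%, 42.9% and 24.0% of singleton CD4 sp cells and 13.6%, 13.1%, 7.34% and 10.3% of expanded ones. The comparison was therefore repeated within CCR7+LEF1+ CD4 sp cells only, a restriction chosen after the data had been seen.

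Within the gate RGS10, CTPS1, CSTA, FAM241A, PDE3B and RFLNB were higher in singletons. RGS10 was at 464, 347, 268 and 171 CPM in singleton CD4 sp CCR7+LEF1+ cells of dogs 1 to 4 and at 35.5, 45.2 and 23.7 CPM in expanded ones of dogs 2 to 4, dog 1 having only 18 such cells. The lowest singleton value was thus above the highest expanded one. PDE3B was at 163, 116, 88.9 and 69.7 CPM against 23.1, 20.1 and 16.3 CPM, without overlap. RFLNB was at 62.6, 49.0, 68.3 and 32.9 CPM against 1.78, 5.02 and 0 CPM, again without overlap. These expanded RFLNB values rest on 1, 1 and 0 UMIs, and 0 UMIs in dog 4 allow up to 4.45 CPM by counting error only. The share of all genes without overlap is not given for this or the other clone comparisons, so nothing is read from it.

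In this subset 6 of the 7 members tested were called by edgeR, beside 723 of 7670 genes (9.43%), of which 300 (3.91%) were higher in singletons. With the dog as a block 902 genes were called (11.8%), with the same 6 members among them. The log2 fold changes were 5.30 ± 0.66 SE for RFLNB, 3.39 ± 0.40 for RGS10, 2.81 ± 0.39 for CTPS1, 2.60 ± 0.40 for PDE3B, 2.32 ± 0.52 for CSTA and 2.01 ± 0.33 for FAM241A, with adjusted p-values from 0.000311 for RGS10 to 0.0142 for CSTA. The fold change of RFLNB rests on 1, 1 and 0 UMIs in the expanded cells, so its size is not well determined. RFLNB passed the filter on low counts through its singleton sums, and nothing further is read from its call. HOMER2 did not pass (-0.11 ± 0.46, adjusted p = 0.934). The calls of RGS10, CTPS1, PDE3B and RFLNB held in all 8 alternatives run, that of FAM241A was lost without dog 2 (adjusted p = 0.0601), and that of CSTA was lost without dog 2 (adjusted p = 0.152) and with DESeq2 (adjusted p = 0.129). The number of genes called dropped to 91 without dog 2, 398 without dog 3 and 465 without dog 4.

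MAL, too rare for the filter, had 87, 51, 7 and 6 UMIs in these singleton cells and 1, 0 and 0 UMIs in the expanded cells of dogs 2 to 4. Thinned to equal depth, 3 or more of the 6 genes named above were detected in 23.2% ± 9.7 of singleton and 1.30% ± 1.4 (n = 3) of expanded CD4 sp CCR7+LEF1+ cells. The same count was 1.495% ± 2.0 in CCR7-LEF1- cells of any clone. The expanded cells were deeper, with medians of 5462 to 5561.5 UMIs in dogs 2 to 4 against 3824 to 4063 UMIs in singletons.

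The list genes described the same subset. Of 12 tested quiescence and naïve genes other than CCR7 and LEF1, 7 were higher and 1 was lower in singletons of CD4 sp CCR7+LEF1+ cells, with ACTN1, an actin cross-linker, at a log2 fold change of 2.12 ± 0.25 (adjusted p = 0.000294), and with IL7R, the interleukin-7 receptor, as the lower one (-0.61 ± 0.12, adjusted p = 0.00720). Of 9 tested memory and effector genes 6 were lower and 0 higher, among them PRF1 (perforin, -4.51 ± 0.52, adjusted p = 0.000273) and CXCR3 (-2.47 ± 0.37, adjusted p = 0.00140). The list medians were 0.72 and -1.73, against 0.02 for all genes.

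**Figure D3:**
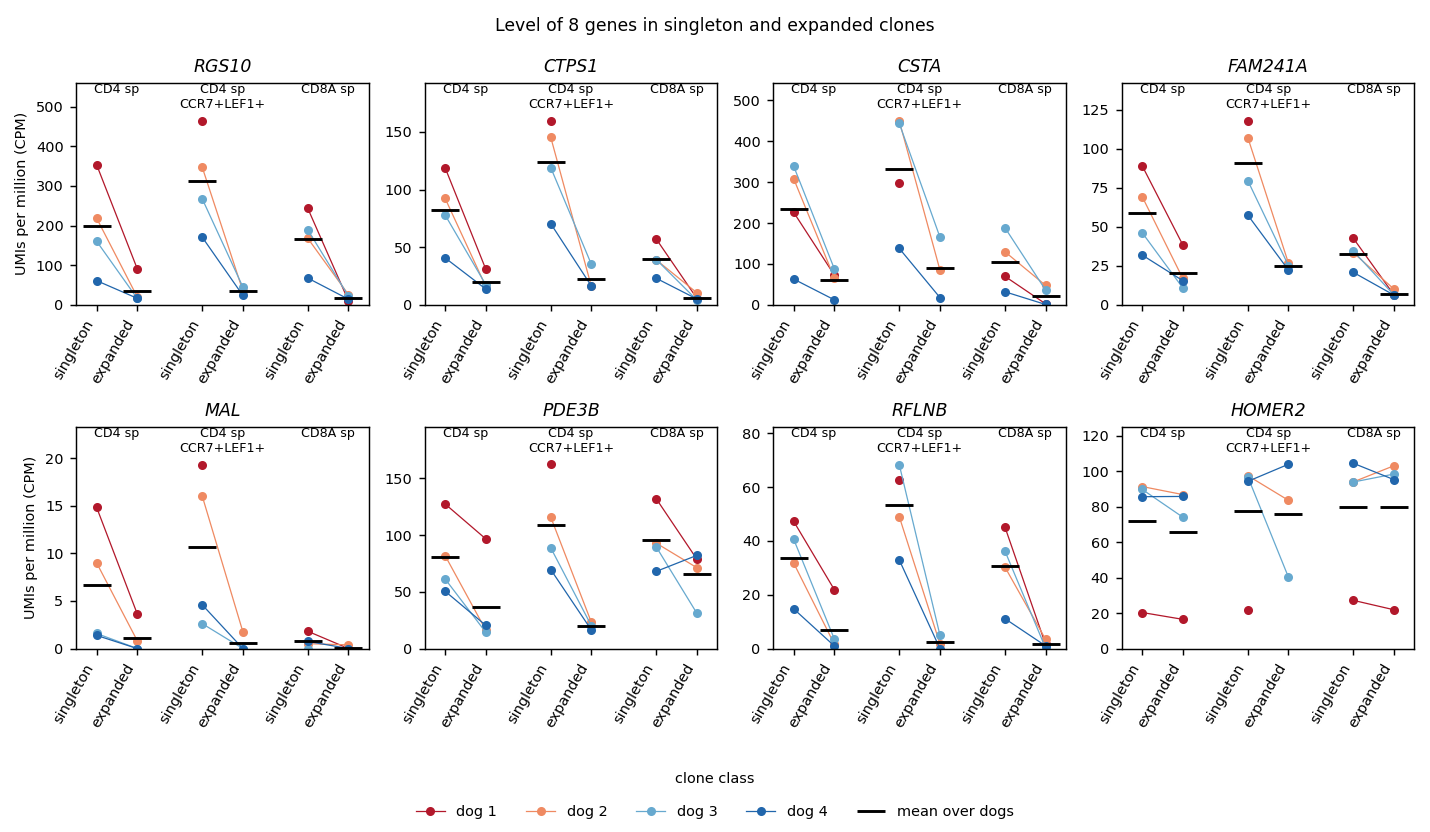
Level (CPM, linear axis from 0) of the 8 genes in singleton and expanded clones of CD4 sp cells, of CD4 sp CCR7+LEF1+ cells and of CD8A sp cells, 1 point per dog joined within a class, black bars for the mean. Lines fall from singleton to expanded in every dog for RGS10, CTPS1, CSTA, FAM241A and RFLNB. PDE3B falls steeply in CD4 sp CCR7+LEF1+ cells, whereas in CD8A sp cells its direction differs between dogs, and HOMER2 stays level. Dog 1 has no expanded point in CD4 sp CCR7+LEF1+ cells.

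In CD8A sp cells the same 4 genes were called. RGS10 was at 243, 168, 189 and 67.3 CPM in 1549 singleton cells and at 10.1, 25.7, 21.9 and 14.1 CPM in 3546 expanded cells of dogs 1 to 4. RFLNB was at 45.2, 30.3, 36.3 and 11.1 CPM against 1.56, 3.45, 0.199 and 0.993 CPM, the latter from 2, 9, 1 and 5 UMIs. RGS10, RFLNB, CTPS1 and FAM241A did not overlap between the groups. The share of all genes without overlap is not given, so nothing is read from this. The log2 fold changes by edgeR were 4.62 ± 0.56 SE for RFLNB (adjusted p = 0.00232), 3.22 ± 0.36 for RGS10 (adjusted p = 0.00171), 2.79 ± 0.32 for CTPS1 (adjusted p = 0.00202) and 2.27 ± 0.25 for FAM241A (adjusted p = 0.00171), beside 88 of 8290 genes called (1.06%), 63 of them (0.76%) higher in singletons. All 4 calls held in each of the 10 alternatives.

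CSTA differed between singleton and expanded CD8A sp cells in all 4 dogs (69.6 and 2.34, 130 and 47.5, 189 and 36.1, 31.8 and 0.794 CPM) but passed only with the dog as a block (2.31 ± 0.74, adjusted p = 0.190, and 2.41 ± 0.29, adjusted p = 0.000257, in a fit that called 545 genes, 6.57%). PDE3B was at 132, 92.9, 89.5 and 68.1 CPM in singleton and at 78.6, 71.2, 30.9 and 82.2 CPM in expanded cells. Dog 4 was higher in expanded cells, and the fold change did not pass (0.62 ± 0.28, adjusted p = 0.364, and 0.0765 with the block). HOMER2 was at 79.8 ± 35 and 79.6 ± 39 CPM (0.02 ± 0.38, adjusted p = 0.999).

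CCR7+LEF1+ cells made up 21.3% ± 8.4 of singleton and 1.52% ± 0.73 of expanded CD8A sp cells, so that here too the clone classes moved with the gate. Only dog 3 had 20 or more expanded CD8A sp CCR7+LEF1+ cells, in which RGS10 was at 77.9 CPM and PDE3B at 35.4 CPM, next to 399 and 147 CPM in its singletons, and no test within the gate was made.

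Whether the singleton difference was larger in 1 lineage was tested as an interaction. By edgeR, 0 of the 7 members tested passed, with 0 at an unadjusted p under 0.05, and DESeq2 called 0 of 8 with 0 at an unadjusted p under 0.05. Only 1 of 9311 genes passed (0.0107%), MXI1, named here because the count was 1. With the dog as a block 36 genes were called (0.387%) and again 0 members, with 1 at an unadjusted p under 0.05. PDE3B had the lowest adjusted p of the members in the fit without the block, 0.851.

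Cells with neither CCR7 nor LEF1 allowed the clone comparison with the gate held at the other end. In CD4 sp CCR7-LEF1- cells CTPS1 was at 40.7, 24.3, 18.4 and 13.6 CPM in singleton and at 9.29, 10.6, 11.6 and 10.6 CPM in expanded cells. RGS10 was at 82.2, 33.2, 21.6 and 12.5 CPM against 9.29, 13.7, 8.66 and 13.5 CPM, with dog 4 reversed. The expanded values of dog 1 rest on 2 UMIs of each gene in 61 cells. The lowest singleton and highest expanded values of CTPS1 rest on 24 and 16 UMIs, too few to tell them apart. By edgeR 23 of 7857 genes were called (0.293%) and 0 of the 6 members tested, with 3 at an unadjusted p under 0.05, and DESeq2 called 0 of 8. With the dog as a block 181 genes were called (2.3%), among them CSTA (log2 fold change 1.38 ± 0.13 SE, adjusted p = 5.10e-07) and RGS10 (1.04 ± 0.26, adjusted p = 0.0348). RFLNB did not pass the filter on low counts. Without the filter edgeR called 74 of 12428 genes, with RFLNB among them (adjusted p = 0.0350). It was at 2.83 to 11.3 CPM in singletons and at 0, 0, 2.17 and 0 CPM in expanded cells, the latter from 0, 0, 3 and 0 UMIs. In dog 1, 0 UMIs allow up to 13.9 CPM, above its 11.3 CPM in singletons. Nothing is read from this call.

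In CD8A sp CCR7-LEF1- cells edgeR called 0 of 7019 genes (0%), with 219 at an unadjusted p under 0.05, and DESeq2 0, with 150. Only RGS10, CSTA, PDE3B and HOMER2 passed the filter. RGS10 was at 13.2 ± 5.5 CPM in singleton and 13.8 ± 6.9 CPM in expanded cells, and PDE3B at 59.2 ± 18 and 66.0 ± 24 CPM. FAM241A, under the filter, was at 11.2 ± 3.1 and 6.45 ± 1.8 CPM.

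Clone size was then split further. In CD4 sp cells RGS10 went from 199 ± 122 CPM in singletons to 37.1 ± 41 CPM in clones of 2 cells, 16.01 ± 3.4 CPM in clones of 3 to 9 cells (n = 3) and 17.8 ± 2.5 CPM in clones of 10 or more (n = 3). CSTA went from 234 ± 124 through 108 ± 60 and 53.6 ± 39 to 20.9 ± 17 CPM, and PDE3B from 80.3 ± 34 through 41.4 ± 39 and 22.1 ± 9.1 to 11.5 ± 6.0 CPM. Dog 1 contributed no sum to the 2 larger sizes and had the highest level in clones of 2 for RGS10 (95.8 CPM) and PDE3B (100.1 CPM), so that its absence lowers the later means. CSTA in dogs 2, 3 and 4 was at 115, 187 and 45.1 CPM in clones of 2 and at 34.0, 27.1 and 1.70 CPM in clones of 10 or more.

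In CD8A sp cells the step of RGS10 and FAM241A lay between 1 and 2 cells. RGS10 was at 167 ± 74, 19.9 ± 8.7, 12.01 ± 8.8 and 20.1 ± 6.9 CPM over the 4 sizes and FAM241A at 32.7 ± 9.0, 8.78 ± 2.9, 8.51 ± 4.2 and 5.60 ± 1.6 CPM. PDE3B stayed at 59.7 ± 11, 62.3 ± 15 and 70.4 ± 32 CPM in the 3 expanded sizes. CSTA of dog 2 was at 15.0 CPM in clones of 2, 15.4 CPM in clones of 3 to 9 and 83.3 CPM in clones of 10 or more. From clones of 3 to 9 to clones of 10 or more it fell in dog 3 (53.9 to 30.0 CPM) and dog 4 (2.35 to 0.319 CPM). In dog 1 it had 1 UMI in each. These steps were not tested.

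**Figure D4:**
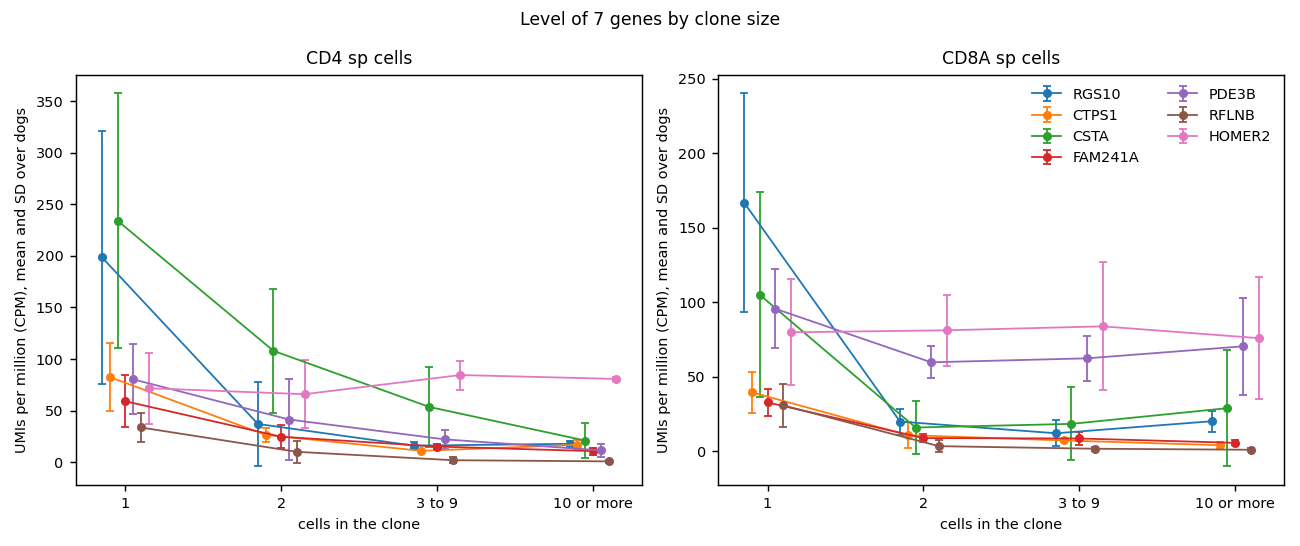
Mean level (CPM, linear axis) with SD over dogs of 7 genes against the number of cells in the clone, CD4 sp cells on the left and CD8A sp cells on the right. RGS10 drops from 199 to 37.1 CPM in CD4 sp and from 167 to 19.9 CPM in CD8A sp cells between clones of 1 and 2 cells. The HOMER2 means lie between 65.9 and 84.5 CPM in both panels. Clones of 3 or more CD4 sp cells rest on 3 dogs, without dog 1, whose HOMER2 was the lowest (20.3 CPM in singleton CD4 sp cells). The HOMER2 means of these sizes thus cannot be compared with those of smaller CD4 sp clones.

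The level of most of the genes differed from dog to dog. In CD4 sp CCR7+LEF1+ cells the levels of RGS10, CTPS1, FAM241A and PDE3B were ordered dog 1, 2, 3, 4 from high to low, and dog 4 was the lowest for CSTA and RFLNB as well. Dog 4 also had the largest expanded share of CD4 sp CCR7+LEF1+ cells with a clone, 28.8% against 1.58%, 11.7% and 4.93% in dogs 1 to 3. Among singleton CD4 sp CCR7+LEF1+ cells alone the order of RGS10 (464, 347, 268 and 171 CPM) and CTPS1 (160, 145, 119 and 70.4 CPM) was the same. With 1 library per dog, age, sex, individual and library cannot be told apart.

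HOMER2 separated dog 1 from the rest in every class. Over all cells it was at 21.2 CPM in dog 1 and at 88.9, 89.4 and 88.1 CPM in dogs 2 to 4, a ratio of 0.239 to the mean of the other dogs. Of 7074 genes of at least 10 CPM, 12 (0.17%) were 3-fold or more below the lowest other dog in dog 1, HOMER2 among them, and 1 (0.0141%), 6 (0.0848%) and 4 genes (0.0565%) were so in dogs 2, 3 and 4, with CSTA and RFLNB among the 4 of dog 4. In the 13 of 15 classes in which dog 1 had 20 cells or more, its HOMER2 level was between 0 and 30.0 CPM and that of the other dogs between 59.5 and 113 CPM. In dogs 2 to 4 the CD4 sp class means differed little, with 91.4 to 99.7 CPM in CCR7+LEF1+, 79.3 to 82.1 CPM in CCR7-LEF1- and 59.5 to 70.6 CPM in FOXP3+ CCR7-LEF1- cells.

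**Figure D5:**
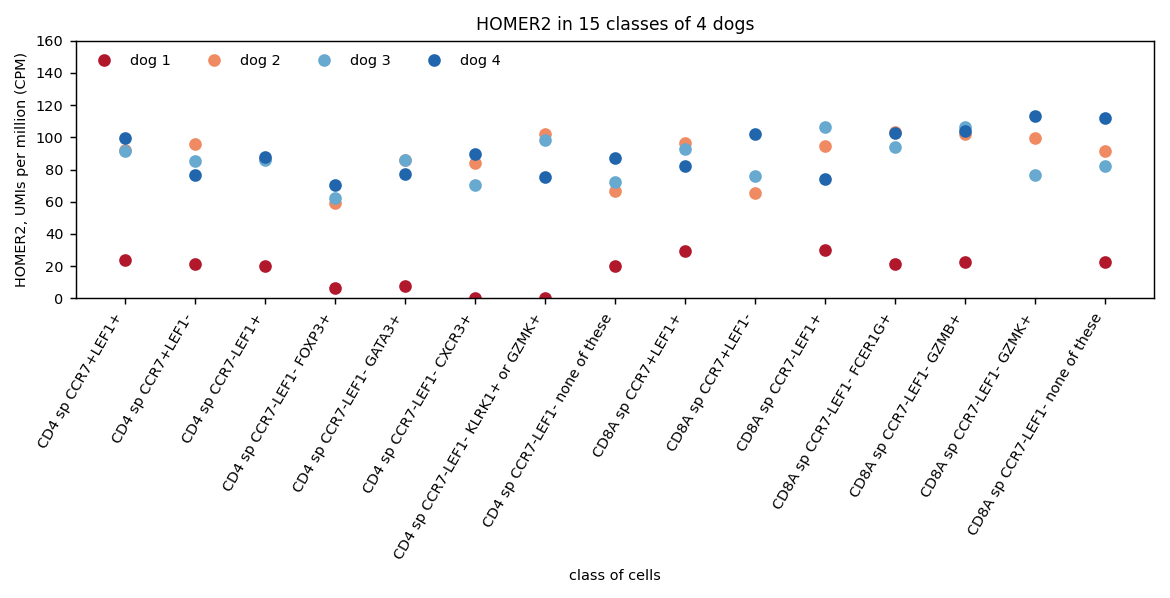
HOMER2 level (CPM, linear axis from 0) in 15 classes of CD4 sp and CD8A sp cells, 1 point per dog. Dog 1 lies between 0 and 30.0 CPM in each of its 13 classes and dogs 2 to 4 between 59.5 and 113 CPM in all of theirs, with no class in which the ranges meet.

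Relatives of the 8 genes were counted from fixed lists. In the singleton comparison of all CD4 sp cells, 0 of 10 tested nucleotide synthesis genes passed (median log2 fold change -0.04), among them the paralogue CTPS2 at 0.25 ± 0.23, while CTPS1 itself was at 2.37. Of 6 other RGS genes 0 passed in all CD4 sp cells, and within CD4 sp CCR7+LEF1+ cells RGS1 was higher in singletons (1.73 ± 0.20, adjusted p = 0.000273) and RGS3 and RGS19 were lower (-1.57 ± 0.32 and -0.64 ± 0.14, adjusted p = 0.00757 and 0.0105). Of 4 tested phosphodiesterases PDE4D was higher in singleton CD4 sp cells (1.02 ± 0.25, adjusted p = 0.0440). Of 7 tested cystatins and cathepsins, the lysosomal protease CTSD was lower (-0.78 ± 0.11, adjusted p = 0.00630) and CTSW higher (1.05 ± 0.26, adjusted p = 0.0445). CSTB, the closest relative of CSTA, was at 0.15 ± 0.25 (adjusted p = 0.782).

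Of the list genes in that comparison, 8 of 14 tested quiescence and naïve genes were higher in singleton CD4 sp cells and 0 lower, and 4 of 14 memory and effector genes were lower and 0 higher, with medians of 0.80 and -1.08. In CD8A sp cells 4 of 14 and 1 of 16 passed in these directions, with medians of 0.49 and -0.68, and 0 of 10 nucleotide synthesis genes. In both of these comparisons the quiescence and naïve list still held CCR7 and LEF1, the genes of the gate with which the clone classes moved. The median over all genes was 0.01 in CD4 sp and 0.00 in CD8A sp cells. The 7 members tested had medians of 2.12 and 2.31.

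The profile of the 8 genes over 58 sums (15 classes by 4 dogs with at least 20 cells) was set against 7060 other genes. RGS10, RFLNB, FAM241A and CTPS1 had the highest r with the mean of the 8 profiles (Pearson's r of 0.96, 0.94, 0.94 and 0.88 on log2 of CPM plus 10). Then came CSTA (0.80), MAL (0.73), PDE3B (0.65) and HOMER2 (0.05). Each gene is itself part of this mean, which raises its r. The classes also include those by CCR7 and LEF1 that chose the genes, so nothing is read from the likeness among them. With single other members HOMER2 had an r of -0.27 to 0.16. CSTA and PDE3B had an r of only 0.18 with each other. These sums share dogs and libraries, and the values are descriptions.

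The 6 most alike genes were an unnamed gene, ENSCAFG00000041232 (r = 0.94), C8orf76 (0.90), DYRK1B (0.88), RPS27A (0.87), PSEN2 (0.87) and TLE4 (0.87), where the median over all 7060 genes was -0.03. ENSCAFG00000041232 was also the most alike gene of RGS10, CTPS1 and RFLNB, and was at 117 ± 57 CPM in CD4 sp CCR7+LEF1+ and 11.99 ± 11 CPM in CCR7-LEF1- cells, and at 146 ± 79 and 2.37 ± 0.76 CPM in CD8A sp cells. PSEN2, a presenilin of the γ-secretase complex, was at 86.9 ± 31 and 20.1 ± 13 CPM in CD4 sp and at 123 ± 41 and 13.2 ± 3.6 CPM in CD8A sp cells. RPS27A, a ribosomal protein gene, moved much less, from 2681 ± 140 to 2023 ± 41.5 CPM in CD4 sp cells. The most alike genes of FAM241A, MAL, PDE3B and HOMER2 were C8orf76 (0.91), BBX (0.77), CDCA7L (0.81) and SLC45A1 (0.80).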

How the data were processed

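Single-cell 5' gene expression and V(D)J libraries of sorted TCRαβ+ cells from 4 dogs were processed by the authors with Cell Ranger 5.0.1 on CanFam 3.1, and the deposited matrices hold raw UMI counts per gene and cell. The gene list of dog 2 (20257 rows) was used for all 4 matrices, since that of dog 1 has 27980 lines. Cells with 500 to 20000 UMIs and at most 10% mitochondrial UMIs and genes in at least 3 cells were kept. No doublet caller was run. Cells with over 1 productive TRB chain made up 4.68% of CD4 sp and 6.06% of CD8A sp CCR7+LEF1+ cells, and were left out of all clone classes.

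UMIs were summed per dog and class (at least 20 cells) and tested over all genes with edgeR 4.0.16 (TMM, filterByExpr, quasi-likelihood test, Benjamini-Hochberg adjusted p under 0.05) in R 4.3.3, after the script had been tested on simulated counts (of 200 genes changed 4-fold, 189 were recovered with 4 false calls in the singleton comparison of CD4 sp cells). The simulated counts had the same dispersion for every gene and no effect of the dog. The recovered number therefore checks the script and does not tell how many such changes would be found in these data. SE is the log2 fold change divided by the root of F. A positive log2 fold change is higher in the first class named. The replicate is the dog, 1 library each. The dog was not a term of the main fit. Classes of the same number come from the same animal and are paired by origin, and deviations from the class means correlated with r of 0.20 to 0.57 between them. The fit with the dog as a replicate block takes up this pairing. DESeq2 1.42.0, upper-quartile scaling, no filter, a 5% mitochondrial limit, 2 UMIs as gate, other clone cut-offs and leaving out each dog were the alternatives.

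The members and the gene lists were chosen with earlier results of these data known. Named genes were the 8 members, at most 6 genes per fixed list and the genes most alike in profile. Reads of near-identical gene copies cannot be told apart here, intervals for 0 counts cover counting error only, and sequences and coordinates of the genes are not reported. Values of some listed or alike genes are not reported here.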

Additional observations from a re-analysis of the deposited data

Results flagged for a closer look

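In a group of 4 dogs a value was singled out when its gap to the nearest dog exceeded Dixon's 95% critical value as a share of the group's range, which chance gives for about 1 in 20 groups. Of 58 groups 12 met this. HOMER2 in dog 1 was the low value in 6 of them, at 23.7 CPM in CD4 sp CCR7+LEF1+, 12.1 CPM in CD4 sp CCR7-LEF1-, 22.6 CPM in CD8A sp CCR7-LEF1-, 20.3 CPM in singleton CD4 sp, 27.1 CPM in singleton CD8A sp and 21.8 CPM in expanded CD8A sp cells. These 6 groups share the animal and its library.

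Dog 1 was the high value in 5 more. In CD4 sp CCR7-LEF1- cells RGS10 was at 88.6 CPM and CTPS1 at 40.3 CPM in dog 1. In expanded CD4 sp cells RGS10 was at 91.3 CPM, PDE3B at 96.7 CPM and RFLNB at 21.9 CPM, in a class that held 132 cells in dog 1, of which 114 were in clones of 2. Dog 2 was high for FAM241A in expanded CD8A sp cells, at 9.96 CPM.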

How the results depend on the processing

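The counts of called genes rose with the dog as a replicate block, which takes up the pairing of classes by animal, and fell most without dog 2 in the CD4 sp and CD4 sp CCR7+LEF1+ clone comparisons (from 500 to 1 and from 723 to 91). With the block they were 551 genes for CD4 sp against CD8A sp CCR7+LEF1+ cells, 1459 and 545 for singleton against expanded CD4 sp and CD8A sp cells, 181 within CD4 sp CCR7-LEF1- cells and 36 for the interaction. The block added the member calls named beside the results and changed no other call. Without the filter on low counts 141, 143 and 74 genes were called in the lineage, CD8A sp and CD4 sp CCR7-LEF1- comparisons, and CSTA and PDE3B passed in all CD4 sp cells (adjusted p = 0.0434 and 0.0399). DESeq2 called 145, 197 and 14 genes in the lineage, CD8A sp and interaction comparisons. With expanded clones of 3 or more cells, 924, 115 and 4 genes were called in CD4 sp, CD4 sp CCR7-LEF1- and the interaction. CSTA and PDE3B then passed in CD4 sp cells (adjusted p = 0.0436 and 0.00832), and PDE3B within CD4 sp CCR7-LEF1- cells (adjusted p = 0.0479). Leaving out each dog gave 28 to 83 genes for the lineages, 1 to 525 for CD4 sp, 24 to 73 for CD8A sp, 7 to 37 for CD4 sp CCR7-LEF1-, 91 to 524 for CD4 sp CCR7+LEF1+ cells, and 0 to 0 for the interaction. CSTA passed in CD4 sp cells without dog 4 (adjusted p = 0.00282) and PDE3B without dog 1 (adjusted p = 0.00356).

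Outside the interaction and the clone comparison in CD8A sp CCR7-LEF1- cells, in which no gene was called and signs are not given, the sign turned for HOMER2 and FAM241A. HOMER2 was at 0.14 with the block and 0.13 with DESeq2 in CD4 sp cells (-0.13 to 0.13 without single dogs), at -0.018 to 0.051 without single dogs in CD8A sp cells, and at 0.27 with the block, 0.057 with DESeq2 and -0.41 to 0.24 without single dogs in CD4 sp CCR7+LEF1+ cells. Its described difference between CCR7+LEF1+ and CCR7-LEF1- CD8A sp cells was 0.14 after thinning, 0.088 with 2 UMIs as gate and -0.157 to 0.084 without single dogs. FAM241A within CD4 sp CCR7-LEF1- cells was at -0.033 with the block and -0.093 to 0.349 without single dogs. In the interaction, where 0 members passed, RGS10 turned from -0.13 to 0.33, CSTA from -0.20 to 0.58 and RFLNB from -1.07 to 0.14 with expanded clones of 3 or more cells. RGS10 also turned without dog 1 (0.20), and HOMER2 (-0.049) with the block (0.078), with DESeq2 (0.086), without dog 1 (0.11) and without dog 4 (0.0036). The cause was not tested. With 4 dogs, levels under about 10 CPM were mostly below the filter and could not be tested.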
